A study of Mus musculus with 8 samples.

Results

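The genes described here break down monoamines or carry them at low affinity: Maoa, Maob, Aldh2, Akr1b3, Slc22a3 and Slc29a4. These 6 genes were taken by name, and all 6 were found by Ensembl identifier among the 38924 genes of the count tables. Ribosome-bound messenger RNA was measured in mouse embryos with bacTRAP, in which a tagged ribosomal protein is made in cells that use a chosen gene's control region, and the RNA on those ribosomes is then pulled down from mixed tissue. In this series the tag was under Slc6a3 (the dopamine transporter) or Slc6a4 (the serotonin transporter), but every library's own description, serotonin included, gives the Slc6a3 line. Groups were therefore taken from the titles.

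Of 6 midbrain dopamine libraries, datL and datM name 2 each, and Lateral and Medial 1 each; 2 serotonin libraries came from hindbrain. The labels do not spell out L and M. Dissection was at embryonic day 15, and the midbrain that the labels call day 18 spent 3 days in vitro after it. That text is shared by all 8 libraries, so it does not say which of them were aged. The file headers place datL and datM in a run named for October, and Lateral, Medial and serotonin in lane 8 of another run. A mark E18 stands in the headers of Lateral and of Medial. No label says whether replicates came from separate animals, so p-values measure only how these libraries vary among themselves, possibly for technical reasons.

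Library totals ran from 22417739 to 33216710 counts. Of 10431 genes with a mean of at least 5 CPM (counts per 1000000 counts of a library), 15.1% to 23.1% were under 1 CPM in each October library and 1.85% to 7.89% in each lane 8 library. Low values of single genes in the October run are therefore frequent. The labels of neuron type were checked on the transporters, whose genes drive the tag. Slc6a3 stood at 31.9 to 740 CPM in dopamine and 0.172 and 0.679 CPM in serotonin libraries, and Slc6a4 at 0 to 5.27 CPM and 1196 and 1075 CPM. The 8 listed dopamine markers summed to 368 CPM in datL replicate 1, with Slc18a2 and Lmx1b at 0. That is below both serotonin libraries (397 and 423 CPM), while the other dopamine libraries had 732 to 1857 CPM. The 7 serotonin markers summed to 90.0 to 423 CPM in dopamine and to 5273 and 4480 CPM in serotonin libraries. Red blood cell markers (5 genes) summed to 102 to 606 CPM in dopamine and to 26.1 and 40.7 CPM in serotonin libraries, and microglia markers (5 genes) to at most 6.74 CPM in any library; their part in the results was not tested. In bulk pull-downs, fewer cells of a type and less RNA per cell cannot be told apart.

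Dopamine and serotonin are taken back into neurons by their own high-affinity transporters, and what escapes can be carried by the low-affinity, high-capacity transporters OCT3 (Slc22a3) and PMAT (Slc29a4). Inside the cell, monoamine oxidases on the outer mitochondrial membrane turn the amines into reactive aldehydes. Monoamine oxidase A (Maoa) prefers serotonin and noradrenaline, while monoamine oxidase B (Maob) is known in the adult brain from serotonin neurons and astrocytes. The aldehydes are then oxidised to acids, in mitochondria by aldehyde dehydrogenase 2 (Aldh2), or reduced to alcohols by enzymes such as aldose reductase (Akr1b3).

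In serotonin libraries, Slc22a3 stood at 194 ± 14.9 CPM (SD, n = 2), against 5.65 ± 11.4 CPM (SD, n = 6) in dopamine libraries, a ratio of means of 34.4. Maoa, Maob and Slc29a4 were also higher in CPM in both serotonin libraries than in all 6 dopamine libraries, with ratios of means of 2.43, 5.38 and 3.35. For Maoa this depends on the scale, as given below. Markers of noradrenaline neurons, which also handle monoamines, moved the same way: the 4 genes summed to 10.2 and 36.0 CPM in serotonin libraries, with none at 0, and to 0 to 3.12 CPM in dopamine libraries, with Dbh, Phox2a and Slc6a2 at 0 in all 6. Their part in these differences was not tested. Aldh2 and Akr1b3 overlapped between the neuron types. Fold changes of 5 of 6 genes were negative, as were 41.1% of those of all genes tested. In CPM, 4 of the 6 lay below both serotonin libraries in every dopamine library, as did 8.59% of all 13806 genes tested. In the other direction, 0 of 6 lay above (3.06% of all genes). The median log2 fold change of the 6 genes was -1.40, beside 0.26 over all genes tested. The median over all genes depended on the method and stood at -0.64 in limma-voom. In edgeR's quasi-likelihood test with Benjamini-Hochberg adjustment over all genes, 0 of 6 passed the threshold of 0.05, and 0 of all genes did (0%). At an unadjusted p under 0.05 there was 1 of 6, Slc22a3, where 4.69% of all genes had such a p. DESeq2 and limma-voom also called 0 of 6, but DESeq2 gave no p-value for Slc22a3 (log2 fold change -5.14), so it did not test that gene.

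**Figure D1:**
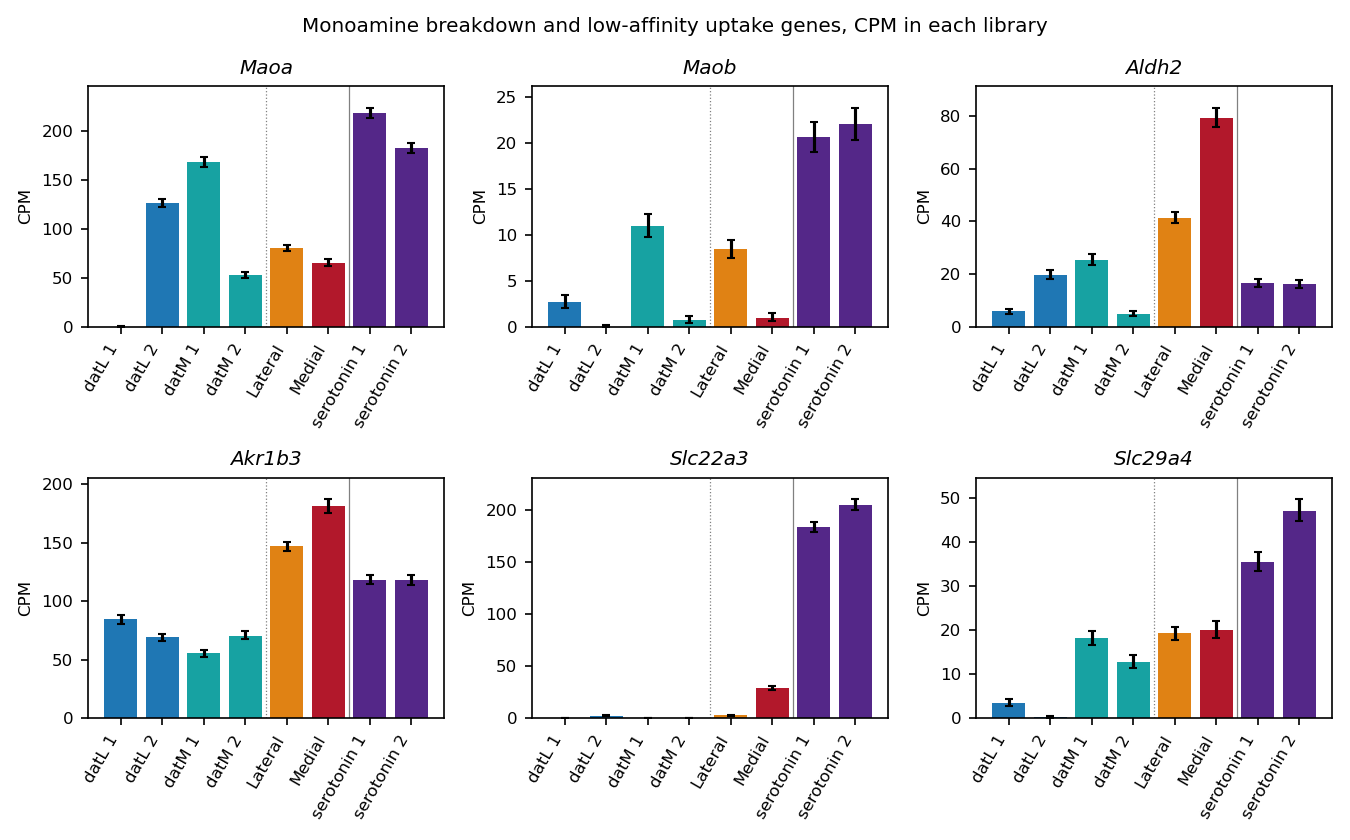
Each panel shows 1 gene, with a bar of CPM for each of the 8 libraries and the exact 95% Poisson interval of its count, which covers counting error only. The dotted line parts the October run from lane 8, the solid line dopamine from serotonin. Maoa, Maob, Slc22a3 and Slc29a4 are highest in both serotonin libraries, while Aldh2 and Akr1b3 are highest in Medial and Lateral.

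Of the monoamine oxidases, Maoa (ENSMUSG00000025037.6) lies on chromosome X from 16619698 to 16687818 (mm10, plus strand), and Maob (ENSMUSG00000040147.8) follows from 16709282 to 16817366 on the minus strand, so that their 3′ ends face each other across 21463 bases. No other gene of the annotation overlaps either. Maoa stood at 0.176 and 127 CPM in datL, 169 and 53.0 CPM in datM, 81.0 CPM in Lateral, 65.5 CPM in Medial, and 219 and 183 CPM in serotonin libraries. The value of datL replicate 1 rests on 4 counts, while its partner had 3319, so the datL pair spans nearly the whole range. The groups overlapped within dopamine, and the closest dopamine library, datM replicate 1, was below the lower serotonin library by a factor of 1.08. The log2 fold change of dopamine over serotonin was -1.14 (SE 1.15, edgeR adjusted p = 1).

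Maob stood at 2.73 and 0 CPM in datL, 10.97 and 0.707 CPM in datM, 8.43 CPM in Lateral, 0.981 CPM in Medial, and 20.7 and 22.1 CPM in serotonin libraries. A count of 0 in datL replicate 2 allows up to 0.114 CPM (3 counts of its total). The serotonin pair was close together and the dopamine libraries were scattered, with no group of them set apart. The log2 fold change of dopamine over serotonin was -2.28 (SE 1.95, edgeR adjusted p = 1). Maob had fewer counts than Maoa in every library except datL replicate 1, where Maoa had 4 counts and Maob 62.

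Levels of different genes were compared per length, as TPM (counts divided by the length of the gene's merged exons, scaled to the same sum in each library). On that scale Maoa exceeded Maob by 7.08 and 5.54 times in the serotonin libraries, 6.43 times in Lateral, 44.7 times in Medial, and 10.3 and 50.2 times in datM. In datL the ratio was 0.0432 in replicate 1 and had no value in replicate 2, where Maob was at 0. The excess of Maoa over Maob was thus smaller in both serotonin libraries than in Medial and in both datM libraries. Lateral lay between the serotonin libraries. For Maoa itself, datM replicate 1 (112 TPM) lay between the serotonin libraries (118 and 104 TPM). Dopamine and serotonin libraries thus overlapped in Maoa per length, though not in CPM.

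Of the low-affinity transporters, Slc22a3 (ENSMUSG00000023828.2, chromosome 17, 12419972 to 12507704, minus strand) stood at 0 and 2.21 CPM in datL, 0.0367 and 0 CPM in datM, 2.77 CPM in Lateral, 28.9 CPM in Medial, and 184 and 205 CPM in serotonin libraries. Behind these lie 0, 58, 1 and 0 counts in the October run, 92 in Lateral, 647 in Medial, and 5416 and 5971 in serotonin libraries. Both serotonin libraries were above the highest dopamine library, Medial, by a factor of at least 6.37. The log2 fold change of dopamine over serotonin was -5.15 (SE 1.87, edgeR adjusted p = 0.835, from 0.0973 to 1 over the alternatives, of which DESeq2 gave none). It was lower in 6 of 6 dopamine libraries.

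Medial stood apart from the other dopamine libraries in Slc22a3. Its level was 14.9% of the serotonin mean. Of 7 listed markers of serotonin neurons, Slc6a4 stood in Medial at 0.346% of its serotonin mean. Tph2, which starts serotonin synthesis, stood at 1.63%, and Fev, a transcription factor of serotonin neurons, at 0.229%. In Lateral, Slc22a3 stood at 1.43% of the serotonin mean, beside 0.464% for Slc6a4, 0.659% for Tph2 and 0.0663% for Fev. In Medial, a single library, the level of Slc22a3 relative to serotonin was above that of these 3 markers. It was below that of Slc18a2 (17.05%), a listed marker of both neuron types. For the remaining listed markers, the log2 fold changes of Lateral and Medial against serotonin were -2.99 (Gata2), -2.22 (Gata3) and -0.02 (Htr1a). The listed markers thus differed widely in their level relative to serotonin. The part of serotonin neurons in the Slc22a3 value was not tested. The 5 pericyte markers summed to 281 CPM in Medial and to 6.79 to 111 CPM in the other 7 libraries, and none of the 5 was at 0 in Medial, Lateral or serotonin replicate 1. Medial was also the highest library for the 6 oligodendrocyte markers (273 CPM, elsewhere 21.1 to 171 CPM, Olig2 at 0 in Medial) and the 5 markers of ependymal cells and choroid plexus (26.3 CPM, elsewhere 1.11 to 16.7 CPM, Kcnj13 at 0 in Medial). The part of these cells in the Slc22a3 value was not tested.

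**Figure D2:**
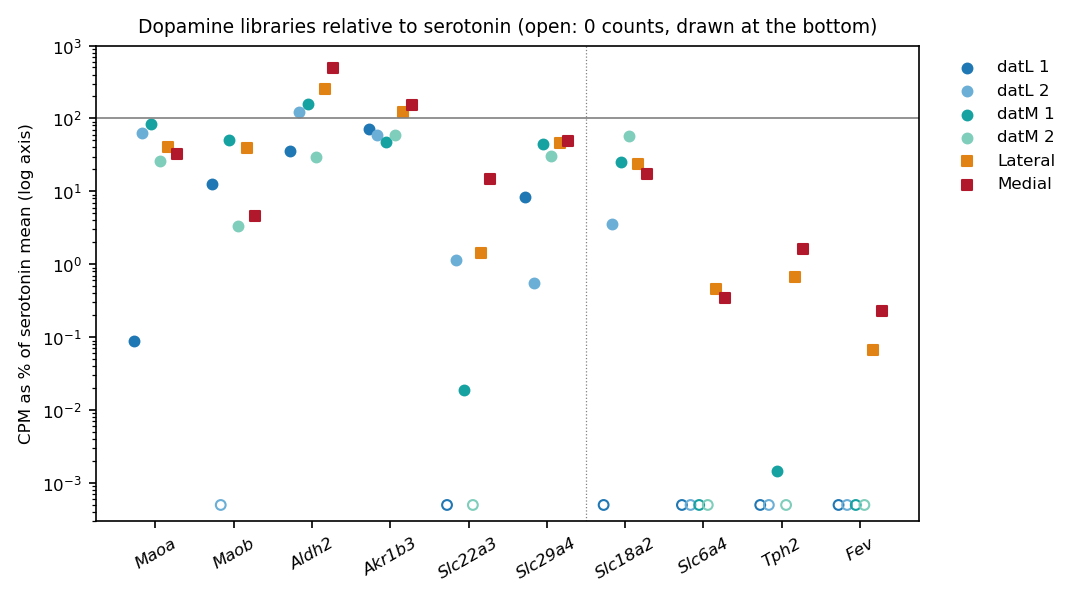
The CPM of each dopamine library is drawn as a percent of the serotonin mean on a log axis, for the 6 genes and, right of the dotted line, for Slc18a2 and 3 markers of serotonin neurons. Open symbols are libraries with 0 counts, placed at the bottom. Slc22a3 reaches 14.9% in Medial, where Slc18a2 stands at 17.05%, while Slc6a4, Tph2 and Fev stay at or below 1.63% in every dopamine library.

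Slc29a4 (ENSMUSG00000050822.7, chromosome 5, 142702101 to 142722490, plus strand) stood at 3.44 and 0.229 CPM in datL, 18.2 and 12.8 CPM in datM, 19.2 CPM in Lateral, 20.1 CPM in Medial, and 35.5 and 47.1 CPM in serotonin libraries. Both datL libraries lay below both datM libraries, and datM replicate 1, Lateral and Medial were close to each other, below serotonin. Outside datL the dopamine libraries were at 30.9% to 48.6% of the serotonin mean. The log2 fold change of dopamine over serotonin was -1.66 (SE 1.33, edgeR adjusted p = 1). Per length, Slc22a3 exceeded Slc29a4 by 4.13 and 3.47 times in serotonin libraries, was near it in Medial (1.15 times) and was below it in Lateral (0.115 times) and datM (0.00161 and 0 times). In datL the ratio was 0 in replicate 1 and 7.70 in replicate 2, the latter on 6 counts of Slc29a4. In serotonin libraries Slc22a3 was thus the more abundant of the pair, and in datM and Lateral it was Slc29a4.

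Of the enzymes that clear the aldehydes, Aldh2 (ENSMUSG00000029455.8, chromosome 5, 121566027 to 121593824, minus strand) stood at 5.82 and 19.7 CPM in datL, 25.5 and 4.87 CPM in datM, 41.4 CPM in Lateral, 79.4 CPM in Medial, and 16.5 and 16.1 CPM in serotonin libraries. Medial and Lateral were the highest of all, and the serotonin libraries lay within the range of the October dopamine libraries. The log2 fold change of dopamine over serotonin was 0.91 (SE 1.25, edgeR adjusted p = 1), and with datL and datM alone against serotonin it was -0.01. Aldh2 is also known from astrocytes. The 9 markers of astrocytes and radial glia summed to 1771 to 3598 CPM in dopamine and to 628 and 793 CPM in serotonin libraries, with Gfap at 0 in 5 of the 6 dopamine libraries. They summed to 1951 CPM in Lateral, 2849 CPM in Medial and 1771 to 3598 CPM in the October libraries. Their part in the Aldh2 values was not tested.

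Akr1b3 (ENSMUSG00000001642.12, chromosome 6, 34303934 to 34317497, minus strand) was the steadiest of the 6 genes. It stood at 84.3 and 69.1 CPM in datL, 55.5 and 70.6 CPM in datM, 147 CPM in Lateral, 181 CPM in Medial, and 118 and 118 CPM in serotonin libraries. Over the 4 October libraries its coefficient of variation was 16.9%, where the other 5 genes gave 73.4% (Aldh2) to 196% (Slc22a3). The log2 fold change of dopamine over serotonin was -0.13 (SE 0.53, edgeR adjusted p = 1). The order was October dopamine, then serotonin, then Lateral and Medial, and none of these ranges overlapped. All 4 lane 8 libraries were thus above all 4 October libraries, as were 7.79% of all genes tested. The overlapping model Gm14546 on the other strand had 1 count over all libraries. Counting was without regard to strand, so how many reads fell in both genes cannot be read from these counts.

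Akr1b3 exceeded Aldh2 per length in every library, by 8.55 and 8.79 times in serotonin libraries and by 2.60 to 17.4 times in dopamine libraries. The serotonin libraries lay inside the dopamine range. In serotonin libraries the level per length ran in the order Slc22a3 (118 and 139 TPM), Maoa (118 and 104 TPM), Akr1b3 (67.5 and 71.1 TPM), Slc29a4 (28.6 and 40.03 TPM), Maob (16.6 and 18.8 TPM) and Aldh2 (7.89 and 8.10 TPM). Slc22a3 and Maoa were not apart beyond the spread of the pair, and the other neighbours did not overlap. In Lateral the order was Akr1b3, Maoa, Aldh2, Slc29a4, Maob and Slc22a3, and in Medial it was Akr1b3, Aldh2, Maoa, Slc22a3, Slc29a4 and Maob. With the longest coding length of each gene in place of the merged exons, Slc22a3 was behind Maoa and Akr1b3 in serotonin replicate 1 and behind Akr1b3 in replicate 2. In replicate 2 Maoa was then behind both Akr1b3 and Slc22a3, so the order of these genes depends on the length used.

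**Figure D3:**
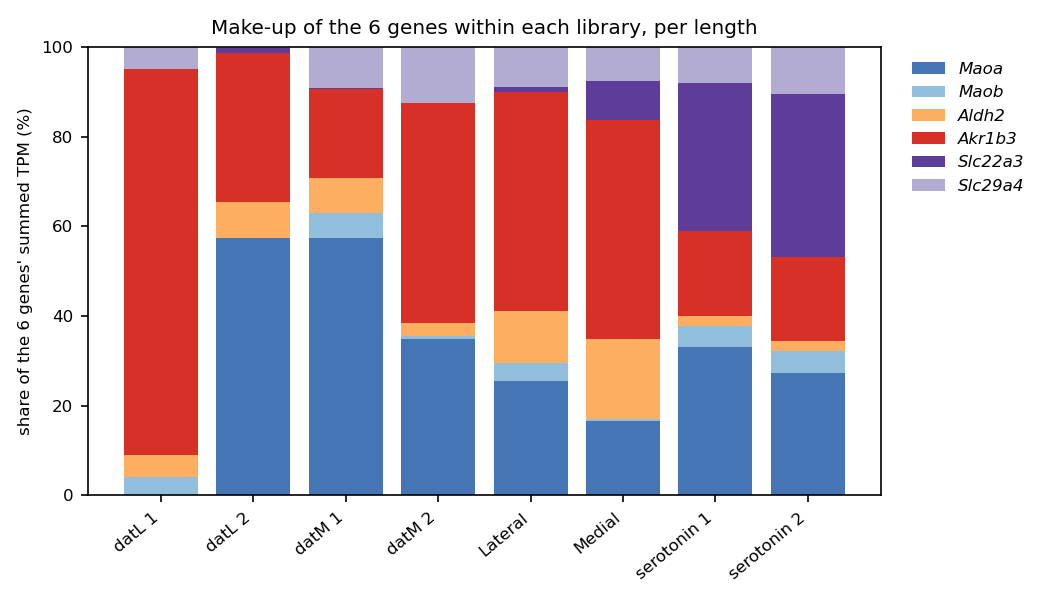
Each bar divides the summed TPM of the 6 genes in 1 library among them, in percent. Slc22a3 makes up 33.1% and 36.4% in the serotonin libraries and 0% to 8.73% in the dopamine libraries, and Akr1b3 makes up 86.0% in datL replicate 1, where Maoa has 4 counts.

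Within lane 8, Lateral and Medial were compared with the same 2 serotonin libraries, so that the run was shared. The E18 mark cannot be told apart from neuron type in this comparison. Maoa (log2 fold change -1.53, SE 0.32), Maob (-2.21, SE 1.25), Slc22a3 (-3.75, SE 1.01) and Slc29a4 (-1.15, SE 0.53) were lower in both dopamine libraries. Aldh2 (1.79, SE 0.53) and Akr1b3 (0.39, SE 0.28) were higher in both. Fold changes were thus negative for 4 of 6, beside 49.1% of all genes. Of all 13400 genes, 24.6% lay below and 25% above in this way, so the absence of overlap by itself is common here. In edgeR 0 of 6 passed after adjustment, where 0.0224% of all genes did. At an unadjusted p under 0.05 there were 3 of 6, where 13.8% of all genes had one: Maoa (edgeR adjusted p = 0.273), Slc22a3 (edgeR adjusted p = 0.286) and Aldh2 (edgeR adjusted p = 0.286).

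These 3 genes passed in DESeq2 in lane 8, as did 787 of all genes (5.87%) (adjusted p = 0.00527 for Maoa, adjusted p = 0.000473 for Slc22a3, adjusted p = 0.0481 for Aldh2). They also passed in edgeR without Lateral (adjusted p = 0.0265 for Maoa, adjusted p = 0.0232 for Slc22a3, adjusted p = 0.0308 for Aldh2), where 17.3% of all genes passed and Maob did too (log2 fold change -4.57, adjusted p = 0.0312). Without Medial, Slc22a3 passed (log2 fold change -6.14, edgeR adjusted p = 0.0075), as did 0.159% of all genes. In these fits a lone library is assumed to vary like the serotonin pair, and without Lateral 2453 of all genes passed. Over all alternatives in lane 8, the adjusted p ran from 0.00527 to 1 for Maoa, from 0.000473 to 0.302 for Slc22a3 and from 0.0308 to 1 for Aldh2.

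**Figure D4:**
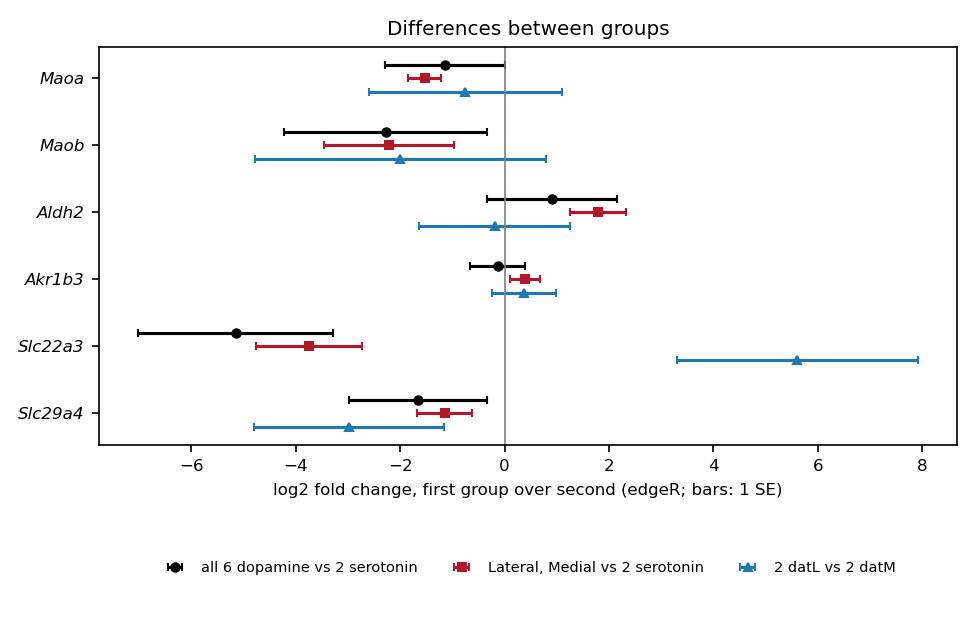
Points are edgeR log2 fold changes of the 6 genes in 3 comparisons, and bars are 1 standard error. The first 2 comparisons share the serotonin libraries. Slc22a3 lies at -5.15 over all dopamine libraries and at -3.75 in lane 8, and for each gene the bar of datL against datM is the widest of the 3.

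Among dopamine libraries, Slc29a4 was lower in both datL than in both datM libraries (ratio of datM to datL means 8.45, log2 fold change -2.98, SE 1.82, edgeR adjusted p = 0.628). It was the only 1 of 6 genes whose datL and datM values did not overlap in that direction, as did 13.2% of all 15177 genes tested, and 0 of 6 did in the other (11.3%). In edgeR 0 of 6 and 0 of all genes (0%) passed. At an unadjusted p under 0.05 there was 1 of 6, Slc22a3 (edgeR adjusted p = 0.597), where 6.92% of all genes had such a p. Slc22a3 rested on the 58 counts of datL replicate 2, and without that library its log2 fold change turned to -2.44. Over all genes, 1050 had an unadjusted p under 0.05 in edgeR, and 1588 passed after adjustment in DESeq2 and 243 in limma-voom, with 0 of the 6 in each.

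Lateral and Medial, of 1 library each, were set side by side with counting intervals and were not tested against each other. Maob was 8.59 times higher in Lateral (log2 ratio 3.10, 95% counting interval 2.48 to 3.80), and Slc22a3 was 10.4 times higher in Medial (log2 ratio -3.38, interval -3.71 to -3.06). Aldh2 was 1.92 times higher in Medial (log2 ratio -0.94, interval -1.04 to -0.84). Maoa (0.31, interval 0.21 to 0.40) and Akr1b3 (-0.30, interval -0.36 to -0.24) differed less, and the interval of Slc29a4 included 0 (-0.06, interval -0.24 to 0.11). With TMM factors Slc29a4 was at 0.11. The intervals cover counting error only, since PCR copies carry no molecular identifiers. The difference of the datL to datM and the Lateral to Medial contrasts, which reads L and M as lateral and medial, gave edgeR adjusted p = 1 for all 6 genes, and an unadjusted p under 0.05 for 1 of 6, Slc22a3, beside 2.63% of all genes. In that fit the spread comes from the groups with 2 libraries, and Lateral and Medial are assumed to vary like them. The Slc22a3 value rests on the 58 counts of datL replicate 2 and on the single Medial library.

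Lateral and Medial were also set against datL and datM, a comparison added after the values were seen, in which run and E18 mark cannot be told apart. Aldh2 (ratio of means 4.32) and Akr1b3 (2.35) were higher in both Lateral and Medial than in all 4 October libraries, as were Slc22a3 (28.1) and Slc29a4 (2.27). These 4 of 6 genes compare with 12.5% of all 12818 genes. In edgeR 0 of 6 and 0 of all genes (0%) passed, and 0 of 6 had an unadjusted p under 0.05 (4.48% of all genes, 574 in number). Of the 6, Akr1b3 had the smallest p (log2 fold change 1.04, SE 0.59, edgeR adjusted p = 1).

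The wider pathway was read from 31 further listed genes, of which 22 could be tested between dopamine and serotonin. In edgeR 0 of 22 passed over all libraries, as did 0% of all genes, and 2 of 22 passed in lane 8, as did 0.0224% of all genes. Of these, Aldh1a1 was higher and Slc6a4 lower in dopamine libraries. At an unadjusted p under 0.05, over all libraries, 2 of 22 were higher (2.8% of all genes) and 2 were lower (1.9% of all genes), and in lane 8 there were 3 higher (7.34%) and 4 lower (6.46%). Slc6a3 and Slc6a4, whose genes drive the tag, are among them and no finding. The median log2 fold change of the 22 genes was -0.16 over all libraries, beside 0.26 for all genes.

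Among the other enzymes of aldehyde clearance, Aldh1a1, a cytosolic dehydrogenase known from some dopamine neurons, stood at 430 ± 346 CPM (SD, n = 6) in dopamine and 0.460 ± 0.165 CPM (SD, n = 2) in serotonin libraries. Its log2 fold change in lane 8 was 10.76 (SE 0.48, edgeR adjusted p = 0.00764), and over all libraries it did not pass (adjusted p = 0.108). Per length, Aldh1a1 in Lateral and Medial (1138 and 1200 TPM) was far above Aldh2 (25.4 and 46.3 TPM), while in serotonin libraries it was below it (0.631 and 0.396 TPM). Aldh7a1, another aldehyde dehydrogenase, stood at 74.8 and 57.6 CPM in Lateral and Medial. In serotonin it stood at 18.8 and 27.1 CPM (edgeR adjusted p = 0.29 in lane 8). In the October run it stood at 0.397 and 177 CPM in datL and at 49.5 and 42.7 CPM in datM. Over all libraries dopamine and serotonin thus overlapped (log2 fold change 1.69, SE 1.37). Akr1a1, an aldehyde reductase, was the most abundant reductase of the list, at 855 TPM on average in dopamine and 1262 TPM in serotonin libraries, and was lower in 6 of 6 dopamine libraries. Its log2 fold change was -0.72 (SE 0.35, edgeR adjusted p = 1).

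Of the transporters of the pathway, Slc18a2, which loads monoamines into vesicles, was lower in 6 of 6 dopamine libraries (61.5 ± 59.4 CPM, SD, n = 6) than in serotonin libraries (290 ± 20.8 CPM, SD, n = 2), with edgeR adjusted p = 1 over all libraries and adjusted p = 0.254 in lane 8. Slc18a1, its relative of endocrine cells, had 30 and 32 counts in serotonin and 0 in each dopamine library. Rfk, the riboflavin kinase, which makes the precursor of the flavin cofactor of monoamine oxidases, stood at 88.6 ± 5.24 CPM (SD, n = 2) in serotonin and 32.3 ± 17.9 CPM (SD, n = 6) in dopamine libraries (edgeR adjusted p = 1, and adjusted p = 0.291 in lane 8). Slc22a2 and Slc47a1, which also carry organic cations, were nearly silent: Slc22a2 had 19 and 0 counts in serotonin libraries and 1 in Lateral, and Slc47a1 had 58 counts in Lateral and 0 elsewhere. Of these 4 carriers, Slc22a3 and Slc29a4 thus held nearly all counts.

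**Figure D5:**
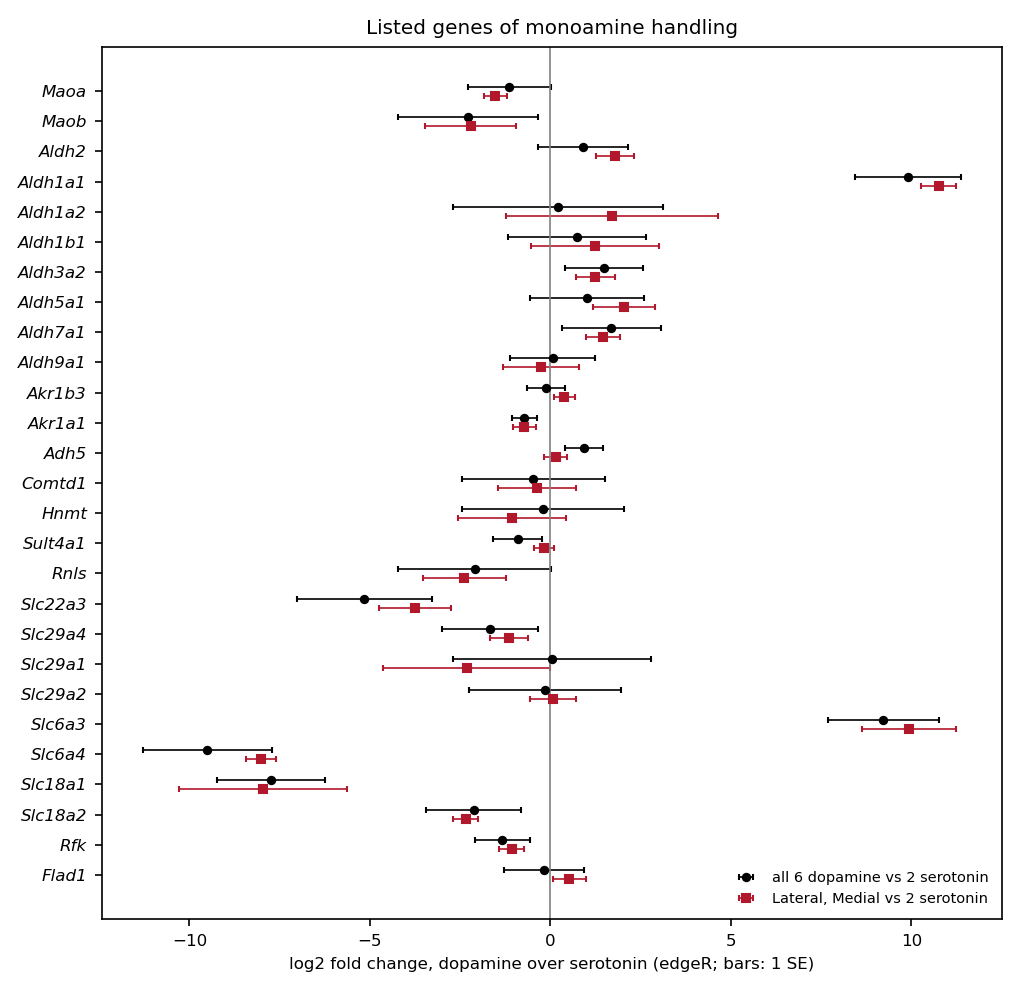
Points are edgeR log2 fold changes of dopamine over serotonin over all libraries and in lane 8, for listed genes tested in both, the 6 described genes included, and bars are 1 standard error. Both comparisons share the serotonin libraries. Aldh1a1 and Slc6a3 lie at 9.23 or above, and Slc6a4 at -8.02 or below, in both comparisons, while the fitted value of Slc18a1, at 0 counts in the dopamine libraries, depends on the prior count.

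Over the 8 libraries, log2 CPM of Maob and Slc29a4 gave the highest correlation between any pair of the 6 genes (Pearson r = 0.84), and that of Maoa and Maob was 0.11. Genes most like each member among 10080 compared were Fuom for Maoa (r = 0.996), Cox5a for Maob (0.97), Cd47 for Slc22a3 (0.962), Shisa7 for Slc29a4 (0.996), Kat2a for Aldh2 (0.955) and Rtl6 for Akr1b3 (0.981). Next came Pno1 for Maoa, Snrnp40 and Eif2b2 for Maob, Cables1 and Anapc5 for Slc22a3, Chchd7 and Fam19a5 for Slc29a4, Cdh20 and Epb41l1 for Aldh2, and Chrna3 and Fbxo46 for Akr1b3, at 0.948 to 0.992. The values share libraries, runs and low values of single libraries, and are given as a description.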

How the data were processed

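The deposited values are raw read counts per gene, 1 table per library. Per the submitters' processing notes, reads were aligned to mm10 with STAR, and per the file headers they were counted with featureCounts 1.4.3-p1, without regard to strand (setting 0), against GENCODE vM2. Exon lengths are those of the deposited tables. The labels' protocols give long-distance PCR of the cDNA and 10 further cycles of enrichment, so counts are not of independent molecules. The deposited counts hold 1 value per gene, so coding and UTR reads were not separated.

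Symbols were attached by Ensembl identifier to 37607 of 38924 genes. Counts were tested with edgeR 4.0.16 in R 4.3.3 (quasi-likelihood test, TMM factors, filterByExpr, two-sided, Benjamini-Hochberg over all genes tested, threshold 0.05), as 6 dopamine against 2 serotonin libraries, as Lateral and Medial against serotonin, and as datL against datM in a fit of 5 groups. All 6 genes passed the filter in each of these. The scripts were tested on simulated data. SE was derived from the fold change and the F statistic. Alternatives were RLE factors, library totals alone, DESeq2 1.42.0, voom of limma 3.58.1, other expression filters, a block for the replicate number, other choices of libraries and each library left out. Intervals are exact Poisson or Clopper-Pearson at 95%. Floors are 3 counts per library.

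The genes and lists were chosen with earlier results of these data known. Named beside the 6 genes are listed genes at an unadjusted p under 0.05 against serotonin, Slc6a3, Slc6a4 and Slc18a2, and the 3 genes most like each member in log2 CPM (prior count 2, mean of at least 5 CPM, unnamed models left out). Akr1a1, Slc22a2 and Slc47a1 were chosen after their values were seen. Protein sequences were not used here, and values of some genes that the rule names are not reported here; counts over lists include them.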

Additional observations from a re-analysis of the deposited data

Results flagged for a closer look

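Slc22a3 in Medial stood at 28.9 CPM, and the other 5 dopamine libraries at 0 to 2.77 CPM. The gap to the next library took up 0.904 of the range of the 6 dopamine libraries, above Dixon's 95% critical value for 6 values. The ratio was taken on linear CPM, and on that scale it passed the critical value for no library in the other 5 genes. A value near 0 hardly stands out on a linear scale: Maoa in datL replicate 1, at 0.176 CPM with the other dopamine libraries at 53.0 to 169 CPM, did not pass. Chance marks about 1 in 20 such groups.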

How the results depend on the processing

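Each log2 fold change of the 6 genes between dopamine and serotonin kept its sign under the 17 alternatives run, except Aldh2 with datL and datM alone against serotonin (-0.01). In lane 8 all signs held under 10 alternatives, and members past the threshold numbered 3 in DESeq2 and 0 to 4 without each library. Between datL and datM the signs of Maoa, Maob, Aldh2 and Slc22a3 turned: Aldh2 stood at 0.03 in limma-voom and ran from -1.34 to 1.47 without each library (positive without datL or datM replicate 1). Maoa ran from -9.21 to 0.33 (positive without the same libraries, 0.24 and 0.33), Maob from -10.39 to 1.06 (positive without datM replicate 1), and Slc22a3 turned to -2.44 without datL replicate 2. With the datL and datM libraries alone Slc22a3 did not pass the filter. Between Lateral with Medial and datL with datM, Maoa stood at 1.21 in limma-voom and ran from -0.81 to 0.14 without each library (positive without datM replicate 1), and Maob ran from -2.12 to 1.88 (negative without datL replicate 2, datM replicate 2 or Lateral). The cause was not tested.

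Counts of all genes past the threshold moved more. Over all libraries they were 125 in DESeq2, 14 in limma-voom, 2 with 5 groups, 2 with datL and datM alone and 0 to 1 without each library. In lane 8 they were 3 in the main test, 787 in DESeq2, 1 in limma-voom, 7 with no expression filter and 13 to 2453 without each library, the highest without Lateral. Between datL and datM they were 1588 in DESeq2, 243 in limma-voom and 0 to 6 without each library. Between Lateral with Medial and datL with datM they were 35 in DESeq2. Scaling by totals alone moved the median log2 fold change of all genes between dopamine and serotonin from 0.26 to 0.14, and it stood at -0.64 in limma-voom, -0.37 with 5 groups and -0.07 with the replicate block.

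With the replicate block, 0 genes passed between dopamine and serotonin and 0 between datL and datM, and it changed no call of the 6 genes. Deviations of same-numbered libraries correlated at 0.101 (datL with datM), 0.0152 and -0.00355 (each with serotonin), and the labels give no shared source, so these values do not establish a pairing, and for datL with datM they do not settle it. No block could be fitted in lane 8, where Lateral and Medial share 1 number. Lengths of reference proteins were not used. At these depths 3 counts correspond to 0.0903 to 0.134 CPM.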

Other observations

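Several listed genes were at or near 0 in replicate 1 and well counted in replicate 2 of both datL and datM. Hnmt, which methylates histamine, had 0 and 329 counts in datL and 2 and 936 in datM. Rnls, which encodes renalase, had 1 and 186 counts in datL and 0 and 114 in datM. Slc29a2, an equilibrative nucleoside transporter, had 0 and 657 counts in datL and 0 and 911 in datM. In lane 8, Slc29a2 had 491 to 868 counts in every library. Among 10431 genes with a mean of at least 5 CPM, 222 (2.13%) were under 0.1 CPM in both replicates 1 and above 1 CPM in both replicates 2, and 87 (0.834%) showed the opposite. Crossed over, 143 (1.37%) were low in datL replicate 1 and datM replicate 2, and 81 (0.777%) in datL replicate 2 and datM replicate 1. These genes were chosen after their values were seen.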
